A study of Mus musculus with 4 samples.

Results

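The 453 regions described here carried a peak of histone H3 trimethylated on lysine 4 (H3K4me3) in 3 of 4 groups of mouse macrophages and none in untreated Wbp7-/- cells. Peaks of all 4 libraries were joined wherever they overlapped by 1 bp or more, which gave 18786 regions, and members were chosen by the presence or absence of a peak in each list. The cells were primary macrophages grown from bone marrow and taken at day 7 of differentiation. The mice were of mixed background, about 94% C57BL/6 with 6% contributed by 129/Ola. The groups were Wbp7-/- cells given lipopolysaccharide (LPS, 10 ug/ml) for 4 h, untreated Wbp7-/- cells, Wbp7+/- cells given the same LPS dose, and untreated Wbp7+/- cells. Each group was 1 library, so no difference below has a replicate check and no test between groups was run. The controls were heterozygous, with 1 functional copy of Wbp7, and no wild-type cells were sampled. The labels do not say how the allele was deleted or how many animals went into a library, and they name the target MLL2 in some fields and MLL4 in others. The track line of the LPS-treated Wbp7+/- list reads 24 h where the label reads 4 h, so its exposure is uncertain, and without that list the rule gave 531 regions.

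H3K4me3 marks the promoters of active genes and of genes held ready for activity. Wbp7, also called Kmt2b, encodes a histone methyltransferase of the MLL family that places methyl groups on lysine 4 of histone H3. LPS, a cell wall component of Gram-negative bacteria, is sensed by macrophages through Toll-like receptor 4 and switches on a large programme of inflammatory and antiviral genes, many of which acquire H3K4me3 when they are induced. Coordinates are of the mm9 build, counted from 1. The gene and promoter tables used here are of another build, GRCm38, so no gene is named and no sequence is printed for a region, and the labelled cell type was not checked against its marker genes.

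A region entered a list only if it passed the peak caller's threshold, so a missing peak is not absent H3K4me3. Each peak carries a score given by the authors' peak caller, MACS, which by that tool's convention grows as the p-value of the peak shrinks, and the lowest score in each list was 50 to 50.03. A score of 3100 or above, here called the ceiling, was held by 8950 to 9695 peaks of a list. Most of these stood at exactly 3100, and the highest score in each list was 3233.06. Scores and widths both grow with read depth, which is unknown. Scores therefore describe and rank peaks within a list, and no difference in score between lists is read as a change. The untreated Wbp7-/- list was the shortest, with 14599 peaks. The others held 15086 in LPS-treated Wbp7-/- cells, 17313 in LPS-treated Wbp7+/- cells and 17316 in untreated Wbp7+/- cells. A lower sensitivity of 1 library and less H3K4me3 in those cells cannot be told apart by presence or absence. Ranges in brackets after a percentage are 95% Wilson intervals, for counting error across regions alone.

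Untreated Wbp7-/- cells were the list most often missing where exactly 1 of 4 lacked a peak. Of 12747 regions of the other 3 lists, 453 (3.55%, 3.25 to 3.89) had no untreated Wbp7-/- peak. The mirror pattern, missing only in LPS-treated Wbp7-/- cells, was found at 245 of 12539 regions (1.95%, 1.73 to 2.21). The missing list was LPS-treated Wbp7+/- cells at 337 of 12631 regions (2.67%, 2.4 to 2.96) and untreated Wbp7+/- cells at 73 of 12367 (0.59%, 0.47 to 0.741). This order depended on the lengths of the lists. When all lists were cut to an equal length of 14599 peaks by score, 221 regions were missing only in untreated Wbp7-/- cells and 169 only in LPS-treated Wbp7-/- cells, against 349 only in LPS-treated Wbp7+/- cells. As deposited, the members made up 39.4% of the 1151 regions with a peak in LPS-treated and none in untreated Wbp7-/- cells. These presence counts chose the members and are given as a description.

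**Figure D1:**
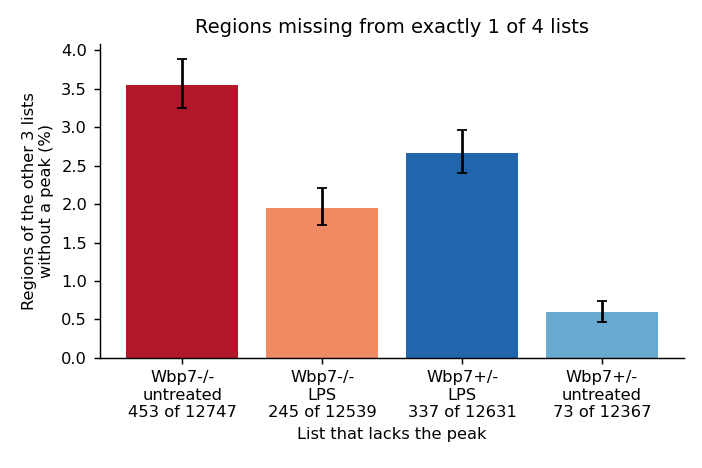
Share of regions of the other 3 lists without a peak in the named list, in percent, with 95% Wilson intervals over regions. The bar of untreated Wbp7-/- cells stands at 3.55%, above 1.95% for LPS-treated Wbp7-/-, 2.67% for LPS-treated Wbp7+/- and 0.59% for untreated Wbp7+/- cells.

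Among regions at the ceiling in some other list, a peak was missing in untreated Wbp7-/- cells more often than in any other list. Where the highest score of the other 3 lists was at the ceiling, 50 of 9797 regions (0.51%, 0.387 to 0.672) lacked an untreated Wbp7-/- peak. At the ceiling, the mirror pattern was found at 6 of 9825 regions (0.0611%, 0.028 to 0.133). The LPS-treated Wbp7+/- peak was missing at 4 of 9786 such regions and the untreated Wbp7+/- peak at 1 of 9716. All 50 members here were at the ceiling in LPS-treated Wbp7+/- cells, and 10 in untreated Wbp7+/- cells. The other 3 lists hold both LPS-treated lists for the members but not for the mirror pattern. By untreated Wbp7+/- score, the ceiling held 10 members and 6 mirror regions of 9568, with overlapping intervals. These counts follow from the rule and are given as a description. Where the highest score was from 500 to under 3100, 7.71% (6.57 to 9.03) lacked an untreated Wbp7-/- peak, 3.55% (2.77 to 4.53) an LPS-treated Wbp7-/- peak and 5.74% (4.76 to 6.92) an LPS-treated Wbp7+/- peak. The first and last of these intervals overlapped. Under 100 the shares in the same order were 50.7% (39.3 to 62), 42.6% (30.3 to 55.8) and 49.2% (37.3 to 61.2), with intervals that overlapped.

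Most members were weak peaks of their lists. Their median score was 88.2 in LPS-treated Wbp7-/- cells, 314.5 in LPS-treated Wbp7+/- cells and 194 in untreated Wbp7+/- cells. In LPS-treated Wbp7-/- cells the scores ran from 50.6 to 3100, and the median member ranked at the 9.26th percentile of all peaks of that list. The median member ranked at the 25.6th percentile in LPS-treated and at the 19.9th percentile in untreated Wbp7+/- cells. A score under 100 was held by 261 members in LPS-treated Wbp7-/- cells (57.6%), against 11.1% of all peaks of that list. The ceiling was reached by 11 members in LPS-treated Wbp7-/- cells, by 50 in LPS-treated Wbp7+/- cells and by 10 in untreated Wbp7+/- cells.

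The members were narrow beside regions found in all 4 lists, and in untreated Wbp7+/- cells about as wide as other regions missing from a Wbp7-/- list. The joined regions had a median width of 1191 bp and ranged from 276 to 5983 bp, against a median of 2586 bp for the 12294 regions found in all 4 lists. Median peak widths were 812 bp in LPS-treated Wbp7-/- cells, 1046 bp in LPS-treated Wbp7+/- cells and 868 bp in untreated Wbp7+/- cells. In untreated Wbp7+/- cells the median was 872 bp for the mirror pattern and 822 bp for regions in neither Wbp7-/- list. The LPS-treated Wbp7-/- peak directly overlapped the untreated Wbp7+/- peak at 448 of 453 members, with a median of 86 bp between their centres. Overlap of some kind is built into the rule. More than 1 peak of a list fell into 49 members, and there the highest-scoring one is described.

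Members were found on all 20 chromosomes tabulated. Their share of the regions of the other 3 lists ran from 1.62% (0.745 to 3.49) on the X chromosome, with 6 of 370 regions, to 5.67% (3.87 to 8.23) on chromosome 12, with 25 of 441. Chromosome 1 held the most members, 39 of 713 regions (5.47%, 4.03 to 7.39).

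Regions of both Wbp7+/- lists were less often members the stronger they were. Among the 829 that scored under 100 in untreated Wbp7+/- cells, 13% were members, 63.1% had no Wbp7-/- peak and 18.9% had both. From 100 to under 500, 10.3% of 2325 were members, and from 500 to under 3100, 4.14% of 2317. At the ceiling, 10 of 9568 were members (0.105%, 0.0568 to 0.192) and 60 had no Wbp7-/- peak. In all 4 classes the members outnumbered the mirror pattern, which made up 4.95%, 5.98%, 2.55% and 0.0627% from the weakest class to the strongest. At the ceiling the mirror pattern held 6 regions (0.0287 to 0.137), and its interval overlapped that of the members. Whether the order in each class holds with lists of equal length was not tested.

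**Figure D2:**
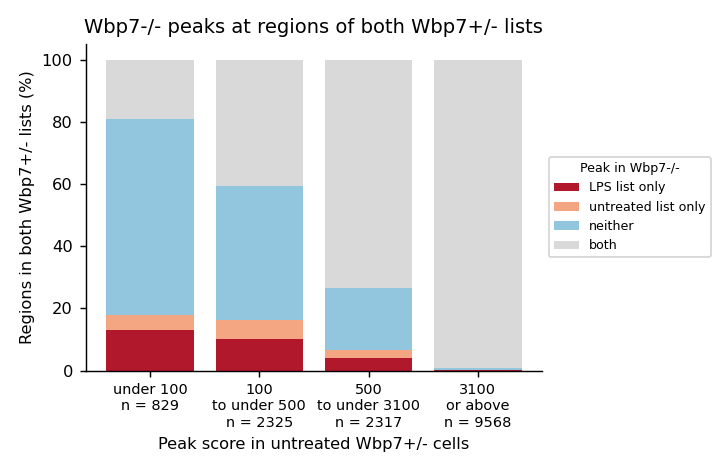
Regions of both Wbp7+/- lists, divided by their score in untreated Wbp7+/- cells (x axis) and by the Wbp7-/- lists that had a peak (stacked shares, percent). The share with a Wbp7-/- peak after LPS only, at the foot of each bar, goes from 13% in the weakest class to 0.105% at the ceiling.

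At the edge of the rule a peak just above the caller's threshold decided membership. Among the members with the lowest LPS-treated Wbp7-/- score, 50.6, was chr5:65067579-65068857, with 52.8 in LPS-treated and 55.0 in untreated Wbp7+/- cells. The same LPS-treated Wbp7-/- score was held by chr13:31721089-31721944 and chr12:86510175-86510727. Just outside the rule, the lowest untreated Wbp7-/- score among regions of all 4 lists was 50.03, at chr10:7111351-7111803, chr6:129151440-129152699 and chr3:151409930-151413121. The last of these stood at the ceiling in both LPS-treated libraries and at 2637 in untreated Wbp7+/- cells. Each region of all 4 lists was also ranked by the longest overlap of its untreated Wbp7-/- peak with any peak of another list, and the lowest value was 152 bp, at chrX:91970664-91970833.

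Some members lay beside a peak of untreated Wbp7-/- cells. The median distance to the nearest such peak was 20.2 kb, and 46 members (10.2%, 7.7 to 13.3) lay within 1 kb and 116 (25.6%, 21.8 to 29.8) within 5 kb. For the 2047 regions in both Wbp7+/- lists and neither Wbp7-/- list these shares were 3.18% (2.5 to 4.03) and 12.7% (11.3 to 14.2). For the 329 regions found after LPS only, in both genotypes, they were 13.4% (10.1 to 17.5) and 33.7% (28.8 to 39). Members thus lay beside such peaks more often than regions without any Wbp7-/- peak, with intervals that did not overlap. The peak beside a member within 1 kb was at the ceiling in 23 of 46 cases. Over the whole untreated Wbp7-/- list, 9047 of 14599 peaks were at the ceiling, so these neighbours were not unusually strong.

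The closest member, chr7:87943649-87945093, lay 21 bp from a ceiling peak of 3715 bp in untreated Wbp7-/- cells. The next, chr3:151853995-151854576, lay 49 bp from a ceiling peak, and chr1:37551409-37552528 lay 53 bp from a peak scoring 434. For such members the part of where the caller ended a peak was not tested. With peaks joined within 1 kb, 389 members were left.

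In Wbp7+/- cells, peaks at the members were mostly wider with LPS than without. The rule asked for a peak in both Wbp7+/- lists but used no widths. The LPS-treated peak was the wider at 311 of 453 members (68.7%, 64.2 to 72.8), against 44.2% of all 15039 regions of both Wbp7+/- lists. The share was 45.7% (39.6 to 52) of the 245 regions of the mirror pattern, 58% (55.9 to 60.2) of regions in neither Wbp7-/- list and 41% (40.1 to 41.9) of regions in all 4 lists. The intervals of the members overlapped none of these. All classes were measured in the same pair of Wbp7+/- libraries, so no test of the difference over samples was possible.

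The order of the members and the mirror pattern was the same at matched strength. With an untreated Wbp7+/- score from 100 to under 500, the LPS-treated peak was the wider at 63.2% (56.9 to 69) of members and 41.7% (33.9 to 50) of the mirror pattern. It was the wider at 57.4% (54.4 to 60.5) of regions in neither Wbp7-/- list and 45.6% (42.4 to 48.7) of those in all 4 lists. From 500 to under 3100 the share was 74% (64.4 to 81.7) of members, 42.4% (30.6 to 55.1) of the mirror pattern, 59.6% (55.1 to 64) of regions in neither list and 46.1% (43.8 to 48.5) of those in all 4. In the class from 100 to under 500 the intervals of members and of regions in neither Wbp7-/- list overlapped.

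**Figure D3:**
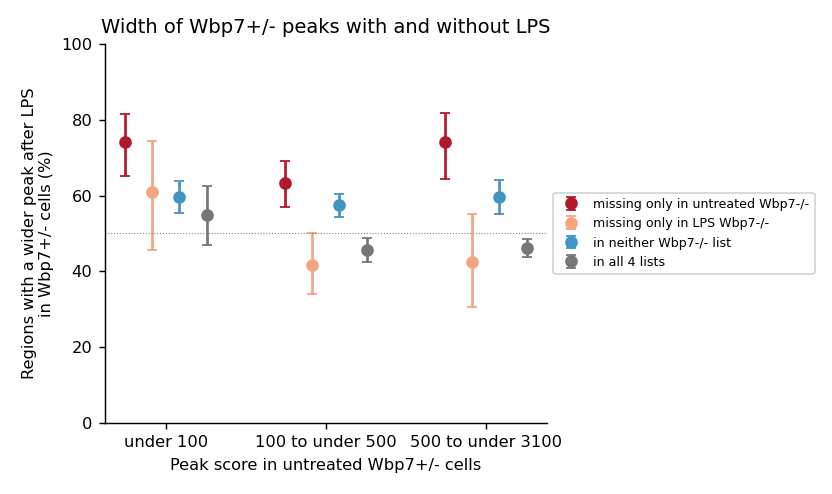
Share of regions with a wider peak in LPS-treated than in untreated Wbp7+/- cells, in percent with 95% Wilson intervals, for 3 classes of untreated score and 4 kinds of region. Members (dark red) stand at 74.1%, 63.2% and 74%, above the regions missing only in LPS-treated Wbp7-/- cells in each class, with overlapping intervals in the class under 100.

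A large difference in width was also more frequent at the members than at the other kinds of region, before matching for strength. The LPS-treated Wbp7+/- peak was at least 2 times as wide as the untreated one at 62 of 453 members (13.7%, 10.8 to 17.2), against 1.74% of the 15039 regions of both Wbp7+/- lists. The share was 1.63% (0.637 to 4.12) for the mirror pattern, 1.76% (1.27 to 2.43) for regions in neither Wbp7-/- list and 1.29% (1.11 to 1.51) for regions in all 4 lists. From 100 to under 500 in untreated Wbp7+/- cells the shares were 12.6% (8.94 to 17.4) of members and 3.49% (2.49 to 4.86) of regions in all 4 lists. Under 100 they were 18.5% (12.3 to 26.9) and 10.8% (6.87 to 16.7), with intervals that overlapped. In untreated Wbp7+/- cells 77.2% of regions in all 4 lists were at the ceiling, so their unmatched share is not like for like. The class from 500 to under 3100 is not given here. Matched shares for the mirror pattern and for regions in neither Wbp7-/- list are not given either.

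LPS-treated Wbp7-/- peaks at the members were mostly narrower than those of LPS-treated Wbp7+/- cells. The Wbp7-/- peak was the wider at 117 of 453 members (25.8%, 22 to 30), against 61.9% (61 to 62.7) of regions in all 4 lists. The median ratio of LPS-treated Wbp7-/- to LPS-treated Wbp7+/- width was 0.803 at members and 1.04 at regions in all 4 lists, which were not matched for strength. The rule asks for a missing Wbp7-/- peak and for both Wbp7+/- peaks. It thus favours regions weak in Wbp7-/- cells, and this order may follow in part from that choice.

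Among the members, scores in LPS-treated Wbp7-/- cells ran with those of LPS-treated Wbp7+/- cells and hardly at all with those of untreated Wbp7+/- cells. Across the 453 members, the LPS-treated Wbp7-/- scores had a Spearman's rho of 0.46 with the LPS-treated Wbp7+/- scores and of 0.026 with the untreated Wbp7+/- scores. These values describe regions that share their libraries. The rule also shapes them, because it leaves out regions with an untreated Wbp7-/- peak. Of 9568 regions of both Wbp7+/- lists at the ceiling in untreated Wbp7+/- cells, 9492 had both Wbp7-/- peaks. Such regions could not be members, so the difference between these values is not read as a result. With a limit of 500, chosen after the data were seen, 54 members scored 500 or above in LPS-treated Wbp7-/- cells. A further 92 scored 500 or above in untreated Wbp7+/- cells but under 500 in LPS-treated Wbp7-/- cells, and 307 were under 500 in both.

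**Figure D4:**
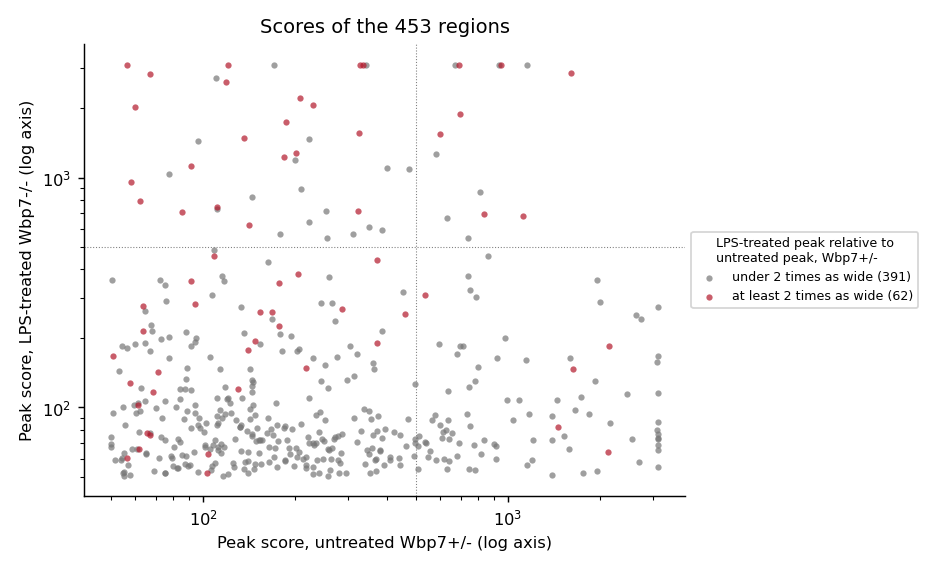
Peak scores of the 453 members in untreated Wbp7+/- cells (x, log axis) and LPS-treated Wbp7-/- cells (y, log axis), with dotted lines at 500. Of the 54 members on or above the horizontal line, 28 had a Wbp7+/- peak at least 2 times as wide with LPS as without (red). The share over all 453 members was 13.7%. An LPS-treated score chose the 54. The 10 members at the ceiling in untreated Wbp7+/- cells lie at the lower right.

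Nearly all of the 54 members strong in LPS-treated Wbp7-/- cells were strong in LPS-treated Wbp7+/- cells too. Their median scores were 1248 in LPS-treated Wbp7-/-, 2963 in LPS-treated Wbp7+/- and 227 in untreated Wbp7+/- cells. Of the 54, 52 reached 500 in LPS-treated Wbp7+/- cells, against 179 of all 453 members. In untreated Wbp7+/- cells 14 of the 54 did so, a share near that of all members, 106 of 453. A score of 500 was also reached in LPS-treated Wbp7+/- cells by 89.2% of regions in all 4 lists. The share among all regions at 500 or above in LPS-treated Wbp7-/- cells was not computed. Median peak widths were 1924 bp in LPS-treated Wbp7-/- cells, 2277 bp in LPS-treated Wbp7+/- cells and 997 bp in untreated Wbp7+/- cells. The LPS-treated Wbp7+/- peak was wider than the untreated Wbp7+/- peak at 51 of the 54, against 311 of all 453 members (68.7%). An LPS-treated score chose the 54, and 52 of them were also strong in LPS-treated Wbp7+/- cells. This order within Wbp7+/- cells may therefore follow in part from that choice. The width in LPS-treated Wbp7-/- cells goes with the score that chose the 54, so its order against the other lists is not read as a result. These 54 lay on 15 chromosomes, and 10 of them within 1 kb of an untreated Wbp7-/- peak.

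All 11 members at the ceiling in LPS-treated Wbp7-/- cells reached it in LPS-treated Wbp7+/- cells. Of regions in all 4 lists, not chosen by score, 75.4% did so. The share among all regions at the ceiling in LPS-treated Wbp7-/- cells was not computed. The widest in LPS-treated Wbp7-/- cells, chr14:103445572-103450173, had peaks of 4386 bp in LPS-treated Wbp7-/-, 4085 bp in LPS-treated Wbp7+/- and 2309 bp in untreated Wbp7+/- cells. At chr4:131475679-131480246 the widths in that order of lists were 3642, 4568 and 669 bp. At chr11:82929411-82934104 they were 3507, 4694 and 3065 bp. The untreated Wbp7+/- peak could thus be a small part of the LPS-treated one, as on chromosome 4, or most of it, as on chromosome 11. The untreated Wbp7+/- scores of these 3 regions were 171, 121 and 1153.

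The region chr10:74779162-74783394 measured 3016 bp in LPS-treated Wbp7-/-, 4233 bp in LPS-treated Wbp7+/- and 1118 bp in untreated Wbp7+/- cells, where it scored 690. For chr17:57364288-57367909 the widths in these lists were 2898, 3622 and 1690 bp, with an untreated Wbp7+/- score of 335. For chr1:175959311-175962158 they were 2847, 2720 and 1302 bp, with a score of 328. This last was wider in LPS-treated Wbp7-/- than in LPS-treated Wbp7+/- cells, as were 14 of the 54. The other named regions of this kind were chr7:109164092-109166740, with widths of 2524, 2645 and 1594 bp, and chr11:20609914-20612602, with 2000, 2468 and 1785 bp.

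The widest member, chr11:59361084-59367066, spanned 5983 bp and scored 867 in LPS-treated Wbp7-/-, 3100 in LPS-treated Wbp7+/- and 811 in untreated Wbp7+/- cells. It lay 1693 bp from a ceiling peak of untreated Wbp7-/- cells that was 5303 bp wide. Next came chr4:144822732-144828236 with 5505 bp, a weak region joined from narrower peaks, the widest of the highest-scoring ones 3189 bp, that scored 117 in LPS-treated Wbp7-/-, 406 in LPS-treated Wbp7+/- and 68.3 in untreated Wbp7+/- cells. The fifth in width, chr2:122463228-122467812 with 4585 bp, was at the ceiling in both LPS-treated lists and scored 946 in untreated Wbp7+/- cells. Regions of 3 kb or wider made up 15 of the 54 members strong in LPS-treated Wbp7-/- cells (27.8%, 17.6 to 40.9), 7 of the 92 under 500 there but strong in untreated Wbp7+/- cells (7.61%, 3.73 to 14.9) and 4 of the 307 others (1.3%, 0.508 to 3.3). Peak scores chose these groups and widths go with scores, so this order is not read as a result.

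The 92 members strong in untreated Wbp7+/- cells had median scores of 82.8 in LPS-treated Wbp7-/-, 1429 in LPS-treated Wbp7+/- and 947 in untreated Wbp7+/- cells. In LPS-treated Wbp7-/- cells 59 of the 92 scored under 100, close to the caller's threshold. Their peaks had median widths of 756 bp in LPS-treated Wbp7-/-, 1314 bp in LPS-treated Wbp7+/- and 1232 bp in untreated Wbp7+/- cells. The limit on both scores chose the 92, and the order of these scores and widths between LPS-treated Wbp7-/- and untreated Wbp7+/- cells follows in part from that choice. Within Wbp7+/- cells the LPS-treated peak was the wider at 67 of the 92 (72.8%, 63 to 80.9), near the 68.7% of all 453 members. It was at least 2 times as wide at 5 of the 92, against 13.7% of all members. Of the 92, 2 lay within 1 kb of an untreated Wbp7-/- peak (2.17%, 0.598 to 7.58).

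The 10 members at the ceiling in untreated Wbp7+/- cells reached it in LPS-treated Wbp7+/- cells too. Of regions in all 4 lists, not chosen by score, 75.4% did so. The share among all regions at the ceiling in untreated Wbp7+/- cells was not computed. These 10 members scored from 55.0 to 274 in LPS-treated Wbp7-/- cells. Their untreated Wbp7+/- score chose them, so the widths are given as a description. The widest in untreated Wbp7+/- cells, chr10:94876321-94880478, measured 2288 bp in LPS-treated Wbp7-/-, 4089 bp in LPS-treated Wbp7+/- and 2768 bp in untreated Wbp7+/- cells. At chr13:22111602-22114374 the widths in these lists were 801, 2773 and 2581 bp. At chr16:58407834-58410377 they were 1223, 2544 and 1930 bp. The LPS-treated Wbp7-/- scores of these 3 regions were 274, 65.0 and 167, so the widest of them also ranked highest in that list.

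At chr3:37538419-37540387 the peak measured 935 bp in LPS-treated Wbp7-/-, 1969 bp in LPS-treated Wbp7+/- and 1841 bp in untreated Wbp7+/- cells. At chr11:100830472-100832340 the widths were 749, 1804 and 1677 bp, and at chr1:34515875-34517435 they were 912, 1537 and 1497 bp. The Wbp7+/- widths were close to each other at these 3. The remaining ceiling regions were chr9:60641885-60643372, chr4:86519694-86521208, chr10:18037899-18039500 and chr12:27098948-27100415. Their LPS-treated Wbp7-/- scores were 86.7, 72.6, 73.6 and 55.0 in that order.

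Just below the ceiling in untreated Wbp7+/- cells came chr17:88654975-88656526, which scored 158 in LPS-treated Wbp7-/-, 2781 in LPS-treated Wbp7+/- and 3081 in untreated Wbp7+/- cells. It was followed by chr2:91898549-91900656, which scored 80.2, 3155 and 3073 in these lists. For comparison, 60 regions at the ceiling in untreated Wbp7+/- cells had no peak in either Wbp7-/- list. How the 10 ceiling members differ from these 60 was not tested.

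The remaining 307 members had median scores of 78.8 in LPS-treated Wbp7-/-, 173 in LPS-treated Wbp7+/- and 141 in untreated Wbp7+/- cells. In LPS-treated Wbp7+/- cells 44 of them reached 500 and 2 the ceiling. The LPS-treated Wbp7+/- peak was wider than the untreated one at 193 of the 307 (62.9%, 57.3 to 68.1) and at least 2 times as wide at 29. Over all 453 members these shares were 68.7% and 13.7%.

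Most members lay apart from each other, and 23 of the 453 lay in dense stretches. Windows of 500 kb with 4 or more members occurred at 4 places that held these 23 members, of which 12 scored 500 or above in LPS-treated Wbp7-/- cells. These places were picked out because members lay close together, and they do not stand for the rest. The densest ran along chromosome 1 between positions 175418515 and 175843164, where 11 of 28 regions in 424.6 kb were members. They made up 11 of the 39 members of that chromosome.

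At all 11 members of this stretch the untreated Wbp7+/- peak was the narrowest. Widths ran from 309 to 1988 bp in LPS-treated Wbp7-/- cells, with a median of 1069 bp. They ran from 328 to 2541 bp in LPS-treated Wbp7+/- cells, with a median of 1187 bp, and from 280 to 1161 bp in untreated Wbp7+/- cells, with a median of 742 bp. The ranges of the 3 lists overlapped, while within each region the untreated Wbp7+/- peak came last. The region chr1:175563281-175565834 measured 1988 bp in LPS-treated Wbp7-/-, 2541 bp in LPS-treated Wbp7+/- and 615 bp in untreated Wbp7+/- cells, with scores of 1278, 3100 and 201. For chr1:175730453-175731878 the widths were 1091, 1426 and 744 bp.

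**Figure D5:**
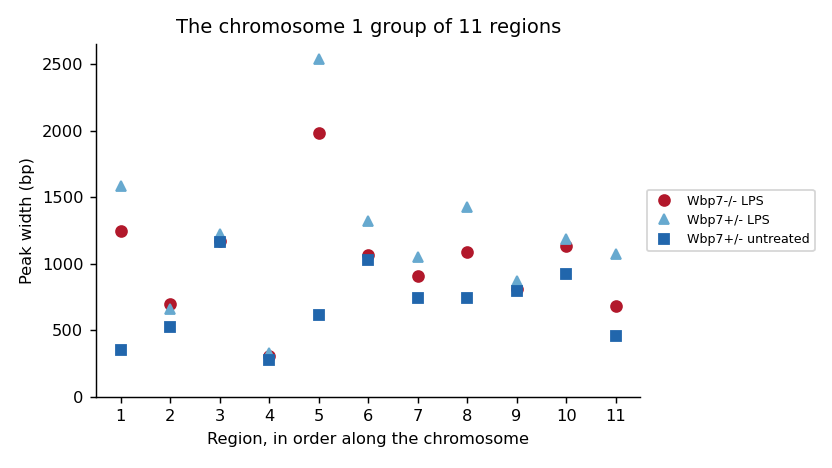
Peak width in bp at the 11 members of the chromosome 1 stretch, in order along the chromosome (x), in LPS-treated Wbp7-/- (circles), LPS-treated Wbp7+/- (triangles) and untreated Wbp7+/- cells (squares). The squares, from 280 to 1161 bp, are the lowest of the 3 at every region.

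On the same stretch, 6 neighbours had a peak in every list and so were not members. Their untreated Wbp7-/- widths were 438, 433, 1982, 3674, 300 and 1381 bp along the chromosome, against a median of 2319 bp over regions in all 4 lists. The LPS-treated Wbp7-/- peak was wider than the untreated Wbp7-/- peak at 5 of these 6 regions, against 40.5% of all regions of the 4 lists. At chr1:175420191-175421521 the widths were 1187 bp in LPS-treated and 438 bp in untreated Wbp7-/- cells, with scores of 2824 and 60.8. At chr1:175560728-175562773 they were 1361 bp in LPS-treated and 433 bp in untreated Wbp7-/- cells, with scores of 1501 and 69.0. The neighbour with the 3674 bp peak was at the ceiling in all 4 lists. Several of the 11 members lay beside another region at a short gap, so they are not 11 separate places.

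The other 3 places held 4 members each. On chromosome 11 between 48711980 and 48878381, the untreated Wbp7+/- peak was narrower than the LPS-treated Wbp7-/- peak at all 4 and narrower than the LPS-treated Wbp7+/- peak at 3. There, chr11:48874295-48876506 measured 2032 bp in LPS-treated Wbp7-/-, 2212 bp in LPS-treated Wbp7+/- and 329 bp in untreated Wbp7+/- cells. On chromosome 19 between 34626055 and 34685434 the counts were the same, 4 and 3, and chr19:34683590-34685434 measured 1480, 834 and 672 bp in these lists. On chromosome 17 between 35201752 and 35576749 the LPS-treated Wbp7-/- peak was narrower than the untreated Wbp7+/- peak at all 4 members, and the LPS-treated Wbp7+/- peak was wider at all 4. The stretch on chromosome 17, with LPS-treated Wbp7-/- scores from 79.6 to 269, thus differed in order from the other 3 places.

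Members within 10 kb of each other formed 10 pairs, and no group was larger. On chromosome 7, the member chr7:19864261-19865684 scored 1475 in LPS-treated Wbp7-/-, 499 in LPS-treated Wbp7+/- and 223 in untreated Wbp7+/- cells, with widths of 1424, 991 and 1016 bp. Its partner chr7:19867481-19868711 scored 186, 1131 and 695 in these lists, with widths of 812, 1231 and 684 bp. The LPS-treated Wbp7-/- peak was the widest of the 3 at one member of this pair, and the LPS-treated Wbp7+/- peak at the other.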

How the data were processed

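H3K4me3 ChIP-seq peak lists of 4 libraries, 1 per group by their titles, were analysed. The submitters' processing notes name Bowtie and mm9, and the peaks are those of MACS, per the file headers, which also mention an input. Software versions, thresholds and depths were not found in the labels or headers. The deposited score of each peak was used as the authors gave it, and widths were computed from the deposited starts and ends.

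Overlapping peaks were merged with bedtools 2.31.1 (1 bp or more). A region takes the score and width of its highest-scoring peak in a list. Wilson intervals came from scipy 1.17.1. On simulated data, made by removing 200 of the 17316 untreated Wbp7+/- peaks from 1 of 4 copies, the rule recovered 200 of 200 and added 0. The copies differed only by small shifts, and only peaks set apart from their neighbours were removed. Full recovery was therefore built in. The run checks the code alone and does not show how the rule performs on the real lists.

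Members, lists and limits were chosen with earlier results of these data known. Named regions are the 12 members highest in untreated Wbp7+/- cells (ties by width), the 8 highest in LPS-treated Wbp7-/- cells, the 5 widest, the 3 at each edge of the rule and examples of those within 10 kb of each other. Dense stretches were chosen after their values were seen. Gene starts, gene lists and marker genes were not analysed here, for want of mm9 gene positions. Alternatives were a 50% overlap, joining within 1 kb, score minimums, lists of equal length, the distance to peak centres and omission of the LPS-treated Wbp7+/- list.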

Additional observations from a re-analysis of the deposited data

How the results depend on the processing

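Of 57 alternative values, 37 stayed near the reported one (counts within 1.5 times, shares and medians within its 95% interval) and 20 did not. Members numbered 297 with peaks under 100 dropped from every list, of which 136 overlapped a reported member, 221 with lists of 14599 peaks each, all among the reported, and 136 with peaks under 100 dropped from all but the untreated Wbp7-/- list. Dropping weak untreated Wbp7-/- peaks makes new members by construction. The share of regions of the other 3 lists without an untreated Wbp7-/- peak was 3.14% with peaks joined within 1 kb, 2.52% at 100 or above in every list, 1.85% with equal lengths and 1.15% with all untreated Wbp7-/- peaks kept. With these kept, 435 regions were missing only in LPS-treated Wbp7-/- cells, against the 136 members. That setting drops weak peaks from the LPS-treated Wbp7-/- list but not from the untreated one. It favours this order by construction, so the order is not read as a result. With the cut at 100 in every list, 179 regions were missing only in LPS-treated Wbp7-/- cells, against 297 members. Regions missing only in untreated Wbp7+/- cells numbered 40 at 100 or above and 114 with equal lengths. At 100 or above in every list, 0 members scored under 100 in untreated Wbp7+/- cells. Median scores were then 196 in LPS-treated Wbp7-/-, 854 in LPS-treated Wbp7+/- and 343 in untreated Wbp7+/- cells, and median widths 1037, 1268 and 1062 bp in these lists. The share of members with a wider Wbp7+/- peak after LPS was 77.1% at 100 or above and 72.9% with equal lengths, and that with a peak at least 2 times as wide was 17.5% at 100 or above. Alternatives for these shares, for the 54 strong members and without the LPS-treated Wbp7+/- list were chosen after seeing the data. No paired analysis was possible because each group had 1 library. Windows around gene starts were not run. Unknown depth limits every presence call.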
